A study of Mus musculus with 12 samples.

Results

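Fos, Fosb, Jun, Junb, Jund, Egr1, Ier2, Atf3, Dusp1 and Socs3 are immediate early genes and stress response genes, and their messenger RNA was measured in epithelial cells sorted from the embryonic mouse salivary gland. The 10 genes were taken by name from a list of immediate early genes and of genes known to respond to tissue dissociation, and the rule itself uses no measured value. The list was chosen with earlier results of these data known, however. The shares of the 10 genes called below are therefore not those of a list fixed in advance. All 10 were among the 43280 genes of the deposited count matrix, and all 10 passed the filter on low counts, which left 17030 genes for testing.

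Immediate early genes are transcribed within minutes of a stimulus from transcription factors already present in the cell, so that no new protein is needed. Growth factor and stress kinases act on serum response factor and its partners and on CREB at their promoters, and the Fos and Jun proteins made in this first wave pair up as the factor AP-1, which binds the promoters and enhancers of later genes. The same wave makes inhibitors that shut it off, among them Dusp1, a phosphatase that inactivates MAP kinases, and Socs3, which blocks cytokine receptors that signal through STAT3. Enzymatic dissociation and sorting of living tissue are known to induce many of these genes, which is why they are often read as a sign of handling as well as of signalling.

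The cells came from submandibular glands of Tg(KRT5-Venus)1Sgkd mouse embryos at embryonic day 15. In this strain the fluorescent protein Venus is made from a transgene under keratin 5 promoter sequence, so K5+ and K5- stand for Venus fluorescence and not for the keratin 5 protein. Every group was positive for E-cadherin and carried the transgene, and the groups differed only in Venus and in staining for the receptor tyrosine kinase Kit. There were 12 libraries, 3 of each of the Kit+ K5+, Kit+ K5- and Kit- K5+ sorts and 3 of Kit- K5- cells, and no drug or other treatment is named. The labels number the libraries 1 to 12. Numbers 1 to 4, 5 to 8 and 9 to 12 each hold 1 library of every group and are called run 1, run 2 and run 3 here, so that replicate 1 of each group is in run 1. The sources used here do not say what the libraries of a run share, nor how many embryos or litters went into each. P-values therefore measure the spread between these libraries, which may be technical.

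The libraries held 5589037 to 13724364 counts, of which mitochondrial transcripts took 5.59% to 30.9% and the 10 genes together 0.178% to 0.835%. The epithelial label was checked on 16 general epithelial genes, whose summed level was 1674 to 3334 CPM (each count as a share of the library's TMM-scaled total) in the 9 libraries of the other groups and 487 to 629 CPM in the 3 Kit- K5- libraries. In those 3 libraries 12 mesenchyme genes summed to 10375 to 18015 CPM, against 181 to 577 CPM elsewhere, led by the fibrillar collagen genes Col3a1 and Col1a2. The Kit- K5- libraries thus went against their epithelial label in these markers, and every comparison with them below is a comparison with cells that carried mesenchyme transcripts. In bulk samples, fewer cells of a type and less RNA per cell cannot be told apart.

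The promoters of Fos, Fosb, Dusp1 and Socs3 are shown because these 4 genes were called in at least 2 of the 3 comparisons with Kit- K5- cells, and because the promoter is where the kinase-responsive factors named above act on immediate early genes. The sequences are from RefSeq on GRCm38.p6, which held a window for 8 of the 10 genes, and each starts 200 bases before the RefSeq transcript start and stops before the next base that GENCODE M21 annotates as exon. For Dusp1 and Socs3 GENCODE also lists transcripts that start further upstream, so these 2 stretches lie between exons inside the gene spans given with their values. Fos is shown at chr12:85473690-85473889 on the plus strand, Fosb at chr7:19310052-19310245, Dusp1 at chr17:26508520-26508672 and Socs3 at chr11:117969452-117969566, the last 3 on the minus strand. Capitals mark matches to the motifs searched.
Fos: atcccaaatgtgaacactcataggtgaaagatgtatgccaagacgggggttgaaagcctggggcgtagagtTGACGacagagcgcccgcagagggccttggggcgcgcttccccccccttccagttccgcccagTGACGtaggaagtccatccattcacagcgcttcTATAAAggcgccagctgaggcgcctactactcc
Fosb: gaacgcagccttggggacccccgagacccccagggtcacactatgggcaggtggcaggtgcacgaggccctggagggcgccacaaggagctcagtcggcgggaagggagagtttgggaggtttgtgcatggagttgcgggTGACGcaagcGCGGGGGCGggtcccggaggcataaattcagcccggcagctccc
Dusp1: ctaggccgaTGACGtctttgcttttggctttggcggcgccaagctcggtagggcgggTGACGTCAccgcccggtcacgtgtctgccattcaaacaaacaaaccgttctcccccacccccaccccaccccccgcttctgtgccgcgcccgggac
Socs3: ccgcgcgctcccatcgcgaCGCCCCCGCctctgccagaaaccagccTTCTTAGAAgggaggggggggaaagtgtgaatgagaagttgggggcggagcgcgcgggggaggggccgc

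Motifs were searched on both strands in the 250 bases before the start, in these genes and in all 32851 windows of the RefSeq table. The cyclic AMP response element TGACGTCA, the palindrome bound by CREB and ATF dimers, was in 1.55% of all windows and, of the 8 genes, in Dusp1. Its half-site TGACG was in 17.8% of windows and in 5 of the 8 genes, namely Fos with 2 copies, Fosb, Junb, Atf3 and Dusp1, where 2 of 3 copies overlap the full element. The EGR site GCGNGGGCG (4.7% of windows) was in Fosb and, on the minus strand, in Socs3. The STAT site TTCNNNGAA (7.02%) was in Socs3 alone of the 8, and the TATA box TATAAA (12.4%) in Fos alone. The AP-1 site TGANTCA (6.75%) and the CArG box of serum response factor (1.47%) were in 0 of 8, which says only that these letters are not in these windows. The 4 genes shown thus shared no single motif of those searched, and no match is evidence of a bound site. GC content was 47.6% in the Jund window and 58.4% to 71.6% in the others of the 8, with a median of 52.4% over all windows. The Jund window ends at base 70697738 of chromosome 8, well before the GENCODE start of Jund at base 70698949. Its GC content and lack of matches are therefore not those of the sequence next to that start. The Atf3 window lies inside the GENCODE span of its gene. The shares of all windows were not matched for GC content, on which matches to motifs such as TGACG and GCGNGGGCG depend.

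**Figure D1:**
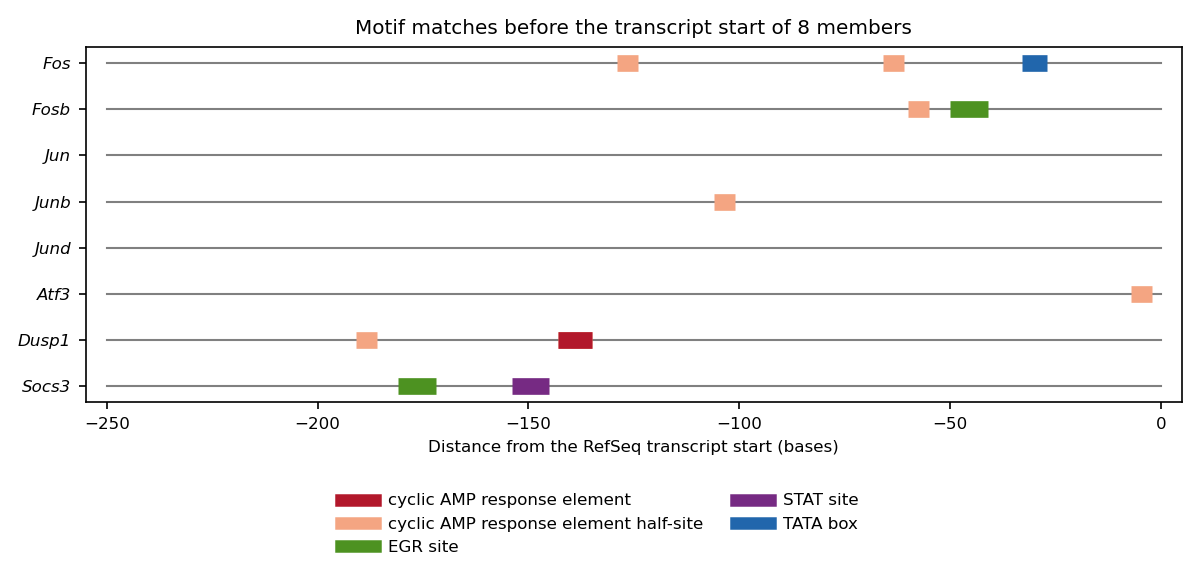
Positions of motif matches in the 250 bases before the RefSeq transcript start of 8 genes, with distance from the start in bases on the x axis and 1 line per gene. Half-sites of the cyclic AMP response element lie in 5 genes, the full element in Dusp1, and the windows of Jun and Jund hold no match. The Jund window does not adjoin the GENCODE start of that gene.

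Egr1 was the most abundant of the 10 genes per length in all 4 groups. Divided by exon length in kilobases, its level was 714 ± 204 CPM per kb (SD, n = 3) in Kit- K5- cells and 331 ± 79.4 CPM per kb in Kit+ K5- cells, the highest and lowest group means. Fos was second in every group, at 235 ± 74.8 CPM per kb in Kit- K5- cells and 91.8 ± 37.4 CPM per kb in Kit+ K5- cells. Fosb stood at 158 ± 93.3 CPM per kb and rank 3 in Kit- K5- cells but at 23.4 ± 11.8 CPM per kb and rank 7 in Kit+ K5+ cells. Ier2 changed place the other way, from 33.1 ± 11.9 CPM per kb and rank 9 in Kit- K5- cells to 48.1 ± 22.0 CPM per kb and rank 4 in Kit+ K5+ cells. Jund and Socs3 were the lowest of the 10 per length in the 3 groups other than Kit- K5-, at 13.6 to 15.6 and 7.31 to 14.1 CPM per kb.

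Fos and Fosb, the AP-1 subunits that must pair with a Jun protein to bind DNA, stood highest in Kit- K5- cells. Fos (chromosome 12, 85473890 to 85477273) was at 539, 383 and 734 CPM in the Kit- K5- libraries of runs 1, 2 and 3. The corresponding levels were 381, 193 and 185 CPM in Kit+ K5+ libraries, 317, 156 and 175 CPM in Kit+ K5- libraries and 375, 188 and 360 CPM in Kit- K5+ libraries. No Fos value of another group reached the lowest Kit- K5- value, although 381 and 383 CPM nearly touch, and those are libraries of different runs. Fos was lower than in Kit- K5- cells by log2 -1.35 ± 0.37 (SE) in Kit+ K5- cells (adjusted p = 0.0196) and by -1.12 ± 0.37 in Kit+ K5+ cells (adjusted p = 0.0381, edgeR's quasi-likelihood test with Benjamini-Hochberg adjustment, as for all adjusted p-values here). In Kit- K5+ cells the difference was -0.84 ± 0.37 and did not pass (adjusted p = 0.138).

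Fosb (chromosome 7, 19302696 to 19310051) had a wider range. Kit- K5- libraries held 1121, 349 and 1491 CPM, against 230.4, 95.1 and 114 CPM in Kit+ K5+ libraries, 275, 78.5 and 202 CPM in Kit+ K5- libraries and 160.2, 85.2 and 502 CPM in Kit- K5+ libraries. The Kit- K5- values lay above all 6 Kit+ values but overlapped the Kit- K5+ group, where replicate 3 was at 502 CPM. Fosb was lower by log2 -2.75 ± 0.68 in Kit+ K5+ cells (adjusted p = 0.00917) and by -2.41 ± 0.67 in Kit+ K5- cells (adjusted p = 0.0201), while -1.99 ± 0.66 in Kit- K5+ cells narrowly missed the threshold (adjusted p = 0.0543). In linear terms the fitted difference from Kit- K5- cells was 6.74-fold for Kit+ K5+ cells and 3.97-fold for Kit- K5+ cells.

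The Jun family had smaller differences than Fosb, and none of its 3 genes was called between groups in the fit that leaves the runs out. With the run as a block, given below, Jun passed in all 3 comparisons with Kit- K5- cells and Jund in Kit+ K5- cells. Jun, the strongest transactivator of the family, was at 367, 208 and 495 CPM in Kit- K5- libraries of runs 1 to 3. It was at 329, 99.4 and 121 CPM in Kit+ K5+ libraries, 319, 88.8 and 139 CPM in Kit+ K5- libraries and 213, 104 and 230.3 CPM in Kit- K5+ libraries. The 3 other groups had nearly equal Jun means of 182 to 183 CPM, against 357 ± 144 CPM in Kit- K5- cells, but the libraries overlapped. Run 1 of both Kit+ groups and runs 1 and 3 of Kit- K5+ cells lay above the 208 CPM of Kit- K5- cells in run 2. The log2 differences from Kit- K5- cells were -0.96 to -0.97, with SE of 0.52 and adjusted p of 0.193 to 0.227.

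Junb, a weaker activator that can restrain Jun, was at 76.5 ± 35.6 CPM in Kit- K5- cells and 52.4 to 62.8 CPM in the other group means. Jund, the family member with the steadiest expression in resting cells, was at 40.8 ± 12.8 CPM in Kit- K5- cells and 22.7 to 26.0 CPM elsewhere. For both genes every group overlapped every other. The largest log2 differences were -0.55 ± 0.40 for Junb and -0.85 ± 0.46 for Jund. Reads of Jun, Junb, Jund and Dusp1 may include those of genes whose exons overlap theirs on the other strand (Junos, Prdx2, Gm11175 and Ergic1), since the sources used here give no strand setting for the counting.

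Atf3, a stress-induced member of the ATF and CREB family that dimerises with Jun proteins, varied more between libraries of a group than between groups. It ranged from 39.5 to 170.2 CPM in Kit- K5- libraries, 14.2 to 99.7 CPM in Kit+ K5+, 15.8 to 104 CPM in Kit+ K5- and 15.9 to 196 CPM in Kit- K5+ libraries. The Kit- K5+ group alone spanned 12.3-fold, and its replicate 3, at 196 CPM, was the highest of all 12 libraries and above the 3 Kit- K5- libraries. The log2 differences from Kit- K5- cells were -0.47 ± 0.90, -1.10 ± 0.91 and -1.31 ± 0.91 in Kit- K5+, Kit+ K5- and Kit+ K5+ cells, none of them called.

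Egr1, a zinc finger factor induced through the ERK kinases and serum response factor, followed Fos at a smaller size. Its level was 3522, 2172 and 3918 CPM in Kit- K5- libraries, 2370.5, 1716 and 1513 CPM in Kit+ K5+ libraries, 1858, 1149.7 and 1443 CPM in Kit+ K5- libraries and 3342, 1479 and 1735 CPM in Kit- K5+ libraries. The Kit- K5- values were above all Kit+ K5- values and overlapped the other groups through run 1. Compared with Kit- K5- cells, Egr1 was lower in Kit+ K5- cells by log2 -1.11 ± 0.32 (adjusted p = 0.0256). The differences of -0.78 ± 0.32 in Kit+ K5+ cells (adjusted p = 0.0899) and -0.55 ± 0.32 in Kit- K5+ cells (adjusted p = 0.263) were not called.

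Ier2, a small nuclear protein of the first wave, ran the other way. It was at 71.2, 37.6 and 42.5 CPM in Kit- K5- libraries, the lowest mean of the 4 groups (50.4 ± 18.2 CPM), against 111, 58.5 and 49.5 CPM in Kit+ K5+ libraries, the highest mean (73.1 ± 33.5 CPM). Kit- K5- cells were the highest group for Ier2 in 0 of 3 runs. The log2 differences from Kit- K5- cells were 0.20 ± 0.39, 0.32 ± 0.39 and 0.54 ± 0.39, all with overlap and none called.

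The 2 feedback inhibitors separated Kit- K5- cells from the other groups most cleanly. Dusp1 (chromosome 17, 26505590 to 26562128), the MAP kinase phosphatase, was at 532, 399.8 and 639 CPM in Kit- K5- libraries. It was at 220.1, 115 and 72.4 CPM in Kit+ K5+ libraries, 296, 94.8 and 104 CPM in Kit+ K5- libraries and 122, 103 and 173 CPM in Kit- K5+ libraries. Kit- K5- cells did not overlap the other groups, with 296 CPM the highest of the 9 other libraries and 399.8 CPM the lowest of the 3 Kit- K5- libraries. Dusp1 was lower in Kit- K5+ cells by log2 -1.98 ± 0.46 (adjusted p = 0.0101), in Kit+ K5- cells by -1.67 ± 0.45 (adjusted p = 0.0183) and in Kit+ K5+ cells by -1.95 ± 0.46 (adjusted p = 0.00696).

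Socs3 (chromosome 11, 117966079 to 117970047), the inhibitor of gp130 and STAT3 signalling, was at 186, 93.4 and 117 CPM in Kit- K5- libraries. It was at 25.6, 17.5 and 20.3 CPM in Kit+ K5+ libraries, 33.6, 14.6 and 19.7 CPM in Kit+ K5- libraries and 75.9, 23.2 and 23.5 CPM in Kit- K5+ libraries. Kit- K5- cells did not overlap the other groups, and the nearest value, 75.9 CPM, was the run 1 library of Kit- K5+ cells. Socs3 was lower by log2 -2.64 ± 0.47 in Kit+ K5+ (adjusted p = 0.00114), -2.54 ± 0.46 in Kit+ K5- (adjusted p = 0.00173) and -1.69 ± 0.45 in Kit- K5+ cells (adjusted p = 0.0210). In linear terms these fitted differences were 6.25-fold, 5.83-fold and 3.22-fold.

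**Figure D2:**
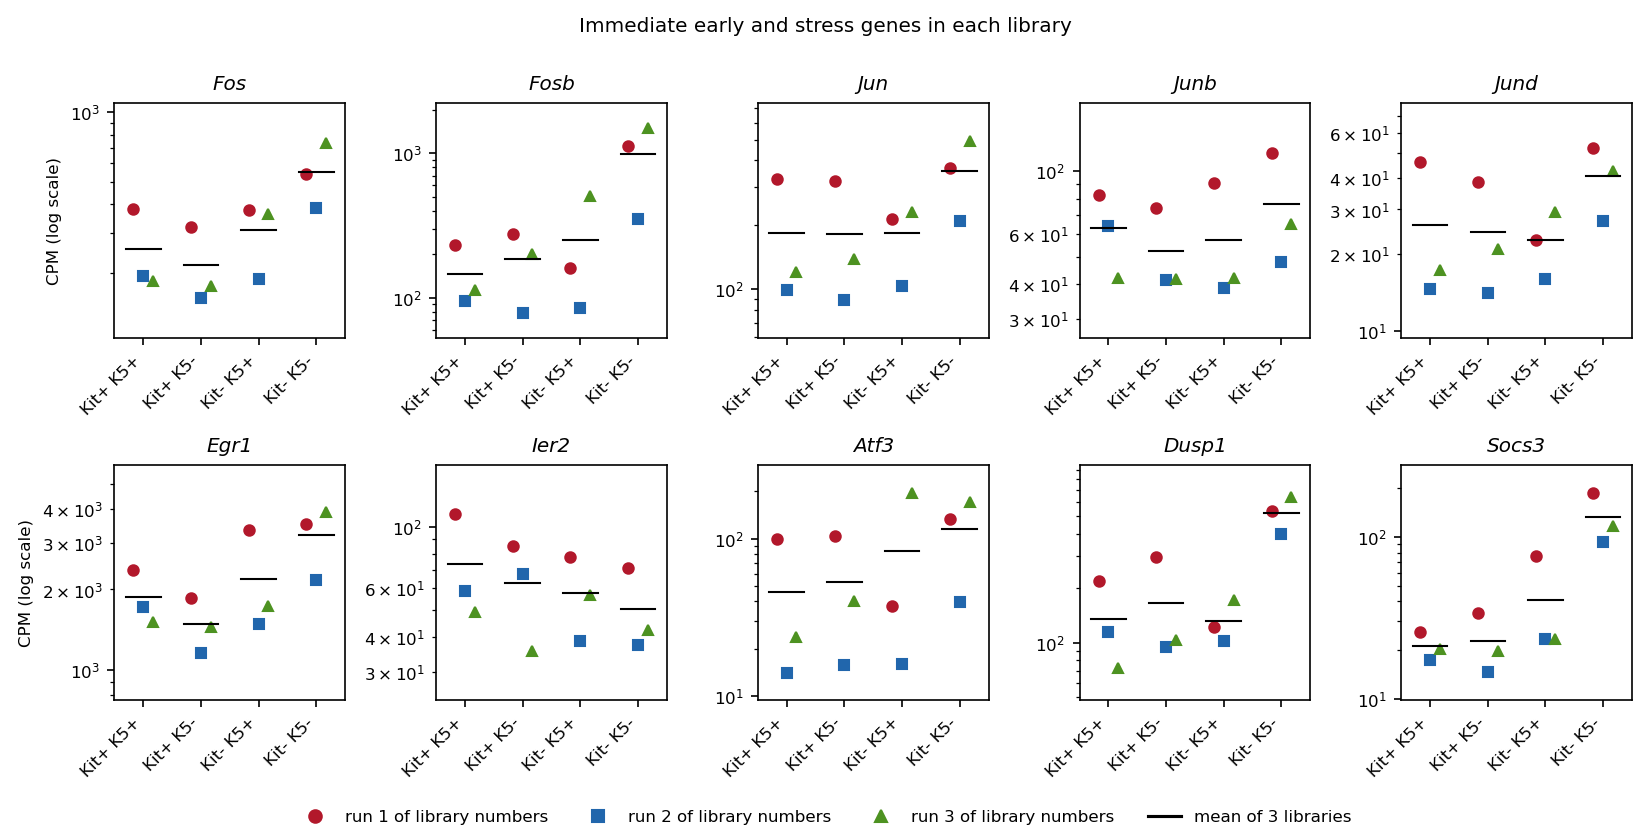
Level of each gene in CPM (log scale) in every library, by sorted group on the x axis, with the run of library numbers as colour and shape and the mean of 3 libraries as a bar. Fos, Dusp1 and Socs3 in the 3 Kit- K5- libraries lie above all 9 other libraries, Ier2 does not, and run 2 (squares) is low in most panels.

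Against Kit- K5- cells, 5 of the 10 genes were lower in Kit+ K5- cells (Fos, Fosb, Egr1, Dusp1 and Socs3), where 11.1% of all 17030 genes were called lower. In Kit+ K5+ cells 4 were lower (Fos, Fosb, Dusp1 and Socs3), against 14.5% of all genes. In Kit- K5+ cells 2 were lower (Dusp1 and Socs3), against 9.1% of all genes. None of the 10 was higher in these comparisons, against 10.2%, 12.2% and 7.38% of all genes. The median log2 difference of the 10 genes was -1.11, -1.04 and -0.85 in that order, beside medians of 0.05, -0.04 and 0.04 over all genes tested. The libraries did not overlap for 5, 4 and 3 of the 10 genes, with 21.3%, 24.6% and 20.1% of all genes lower without overlap. The 3 comparisons share the Kit- K5- libraries and are not independent of one another. These directions are relative to the median gene: scaled instead to the 16 general epithelial genes, an alternative added after the data were seen, the medians over all genes were -2.02, -2.15 and -1.72, and all 10 genes, Ier2 included, were called lower in each comparison, as were 73.8%, 78.7% and 67.3% of all genes. The median of the 10 genes minus that of all genes was then -1.19, -1.11 and -0.85, against -1.15, -1.01 and -0.89 with TMM.

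In each of these comparisons the libraries of a run shared their deviations from the group means (correlations over 0.1), and they were therefore treated as pairs. With the run as a block, the number of genes called lower was 7 in Kit+ K5- cells, 6 in Kit+ K5+ cells and 6 in Kit- K5+ cells, beside 14.9%, 18.1% and 12.8% of all genes called lower with the block. Jun then passed in all 3, at log2 -1.11 ± 0.30 (adjusted p = 0.0136), -1.09 ± 0.30 (adjusted p = 0.0131) and -0.99 ± 0.30 (adjusted p = 0.0272), and Jund passed in Kit+ K5- cells at -0.80 ± 0.28 (adjusted p = 0.0490). Egr1 passed in Kit+ K5+ cells at -0.77 ± 0.21 (adjusted p = 0.0118) and in Kit- K5+ cells at -0.61 ± 0.21 (adjusted p = 0.0491). In Kit- K5+ cells Fos passed at -0.89 ± 0.24 (adjusted p = 0.0189) and Fosb at -2.02 ± 0.39 (adjusted p = 0.00249). Within runs, Kit- K5- cells were the highest of the 4 groups in 3 of 3 runs for Fos, Fosb, Jun, Jund, Egr1, Dusp1 and Socs3, in 2 of 3 for Junb and Atf3 and in 0 for Ier2. How many of all genes had this order was not counted, so these counts are a description only.

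**Figure D3:**
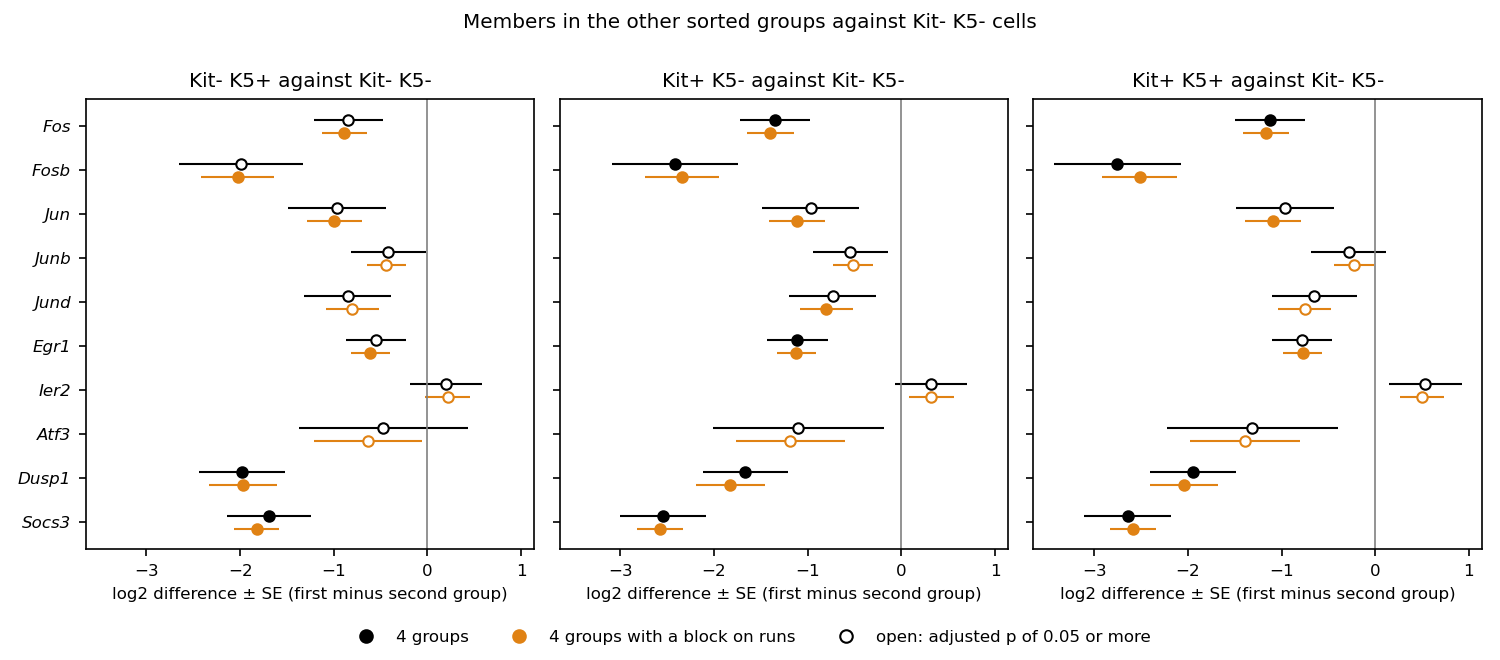
Log2 difference ± SE of each gene in Kit- K5+, Kit+ K5- and Kit+ K5+ cells from Kit- K5- cells (x axis), from the fit of 4 groups (black) and with a block on runs (orange), where filled points have an adjusted p under 0.05. Of the 10 genes, 9 lie left of 0 in every panel and Ier2 lies right of 0.

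Single libraries decided part of these calls. In Kit+ K5- cells only 1 of the 10 genes was called when Kit+ K5- replicate 2 or Kit- K5- replicate 3 was left out, and 2 without Kit+ K5- replicate 3. Of all genes, 1215 of 18677, 1481 of 18540 and 1506 of 18613 were lower in those fits, against 1895 of 17030 with all libraries. In Kit- K5+ cells 1 was called without Kit- K5- replicate 1 or Kit- K5+ replicate 2. There 867 of 18485 and 1061 of 18565 of all genes were lower, against 1550 of 17030 with all libraries. Leaving out the 4 libraries of run 2 left 2, 2 and 0 genes called in Kit+ K5-, Kit+ K5+ and Kit- K5+ cells, and leaving out those of run 3 left 1 in each. The shares of all genes lower were then 3.39%, 5.96% and 2.26% without run 2 and 6.93%, 8.94% and 5.94% without run 3. Fos lost its call in Kit+ K5+ cells without Kit- K5- replicate 1 or 3 or Kit+ K5+ replicate 2 or 3 (adjusted p up to 0.143). Socs3 in both Kit+ groups, Dusp1 in both K5+ groups and Fosb in Kit+ K5+ cells stayed called with any of the 12 libraries left out.

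Markers of several other cell types were high in the Kit- K5- libraries, but those of mast cells were high in Kit+ K5- libraries. All 12 mesenchyme genes were lower in both Kit+ groups and 11 of 12 in Kit- K5+ cells, none of them at 0 in every library. Erythroid genes summed to 136 to 765 CPM in Kit- K5- libraries and 10.95 to 24.8 CPM elsewhere, leukocyte and macrophage genes to 179 to 937 against 47.4 to 481 CPM, and neuron genes to 68.8 to 171 against 2.95 to 13.6 CPM. Mitochondrial transcripts took 5.59% to 12.2% of counts in Kit- K5- libraries and 10.96% to 30.9% in the others. Within the 3 Kit- K5- libraries, replicate 3 had the lowest mesenchyme sum, 10375 CPM, the highest neuron sum, 171 CPM, and the highest Fos, Fosb, Jun, Egr1, Atf3 and Dusp1. Replicate 1 had the highest mesenchyme sum, 18015 CPM, the highest leukocyte and erythroid sums, and the highest Junb, Jund, Ier2 and Socs3. The part of these other cell types in the differences was not tested.

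The other 3 groups were not separated by these genes. None of the 10 genes was called between Kit+ K5+ and Kit+ K5- cells (0% of all genes), between Kit+ K5+ and Kit- K5+ cells (0.658%) or between Kit+ K5- and Kit- K5+ cells (2.67%) by edgeR's quasi-likelihood test. In each comparison 0 of the 10 had an unadjusted p under 0.05 in that test. DESeq2, limma-voom and the fit without the Kit- K5- group also called 0 of 10, with an unadjusted p under 0.05 for 1 gene by DESeq2 between Kit+ K5+ and Kit- K5+ cells and for 0 otherwise. With the run as a block edgeR's test called 0 of 10 too, beside 0.317%, 4.63% and 7.8% of all genes in the order above. An unadjusted p under 0.05 was then found for 0, 1 and 2 of the 10. The closest was Socs3, with the highest mean of the 3 groups in Kit- K5+ cells (40.9 ± 30.3 CPM) against 21.1 ± 4.16 CPM in Kit+ K5+ cells, at log2 -0.96 ± 0.45 for the latter (adjusted p = 0.272). That mean rests on the run 1 library at 75.9 CPM, the other Kit- K5+ libraries being at 23.2 and 23.5 CPM. Between the 2 Kit+ groups the differences ran from -0.34 ± 0.64 for Fosb to 0.33 ± 0.32 for Egr1, and the spread between libraries was too wide to show changes of that size.

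The interaction, which asks whether the K5 difference differs between Kit+ and Kit- cells, was positive for all 10 genes, with a median log2 of 0.95 beside -0.09 over all genes. It called 0 of the 10 in the fit of 4 groups (4.02% of all genes) and 0 by DESeq2 (8.29%) and limma-voom (3.21%). An unadjusted p under 0.05 was found for 2 genes by DESeq2, 4 by limma-voom and 7 with the run as a block. In the fit of 4 groups it was found for 2, namely Dusp1, at 1.70 ± 0.63 (adjusted p = 0.160), and Socs3, at 1.59 ± 0.63 (adjusted p = 0.189). With the run as a block both were called, at 1.75 ± 0.50 (adjusted p = 0.0480) and 1.80 ± 0.34 (adjusted p = 0.00619), beside 8.33% of all genes, although same-run libraries met the limit for pairs in 5 of the 6 pairs of groups. Both genes were low in 3 groups and high in Kit- K5- cells, so the K5 difference was near 0 among Kit+ cells (-0.28 ± 0.44 and -0.10 ± 0.45) and large among Kit- cells. The interaction uses the Kit- K5- libraries, which carried mesenchyme transcripts. In the fit of 4 groups it was called positive for 10 of 12 mesenchyme genes and negative for 0, with a list median of 5.28. It was called negative for 6 of 16 general epithelial genes and positive for 0, with a list median of -1.63. Of all genes, 2.81% were positive and 1.21% negative. The part of other cell types was not tested.

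Levels also differed between the runs of library numbers, with 7 of the 10 genes passing the test. Run 1 was above run 2 in each of the 40 pairs of a gene and a group, and for all 10 genes in all 4 groups, which held for 12.4% of all genes. Run 2 was the lowest of the 3 runs in 34 of the 40, and in all 4 groups for Fosb, Jun, Jund, Atf3 and Socs3 (5 of 10, against 3.01% of all genes). The share of such pairs over all genes was not counted, and the 40 pairs share libraries, so the 34 is a description only. With the sorted group in the fit, those 7 genes stood beside 3.56% of all genes. They were Junb (adjusted p = 0.0170), Socs3 (0.0177), Jun (0.0263), Fosb (0.0330), Ier2 (0.0414), Jund (0.0427) and Atf3 (0.0447), while Egr1 (0.0660), Fos (0.0714) and Dusp1 (0.186) did not pass.

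Against run 1, run 2 was lower for all 10 genes, by log2 -0.76 for Egr1 to -2.32 for Atf3 with a median of -1.03. The contrast of these 2 runs alone was called for Jun (-1.41 ± 0.26, adjusted p = 0.0244), Junb (-0.92 ± 0.18, adjusted p = 0.0359), Jund (-1.19 ± 0.25, adjusted p = 0.0453) and Socs3 (-1.14 ± 0.21, adjusted p = 0.0228), 4 of 10 against 0.664% of all genes lower. Atf3 had the largest ratio, with run 1 above run 2 by 7.04-fold in Kit+ K5+, 6.56-fold in Kit+ K5-, 2.35-fold in Kit- K5+ and 3.38-fold in Kit- K5- cells. Its 4 run 2 libraries held 14.2, 15.8, 15.9 and 39.5 CPM in the order of groups just given.

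Run 3 divided the genes. Junb (-0.93 ± 0.18, adjusted p = 0.0169), Ier2 (-0.88 ± 0.21, adjusted p = 0.0322) and Socs3 (-0.88 ± 0.21, adjusted p = 0.0329) were lower in run 3 than in run 1, 3 of 10 against 2.31% of all genes. These 3 were below run 1 in all 4 groups, which held for 14.7% of all genes. Fosb and Atf3 were near run 1, at 0.22 ± 0.34 and -0.13 ± 0.53, and the other 5 genes lay between -0.36 and -0.58, none called. Relative to run 2, Fosb was higher in run 3 by 1.67 ± 0.34 (adjusted p = 0.0614) and Atf3 by 2.19 ± 0.53 (adjusted p = 0.0986), and 0 of the 10 were called in that contrast by edgeR's quasi-likelihood test (0.112% of all genes higher, 0.0587% lower), with an unadjusted p under 0.05 for 5 (Fos, Fosb, Jun, Jund and Atf3). Fosb and Atf3 in run 3 rest partly on Kit- K5+ replicate 3, where both were highest of their group, at 502 and 196 CPM.

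**Figure D4:**
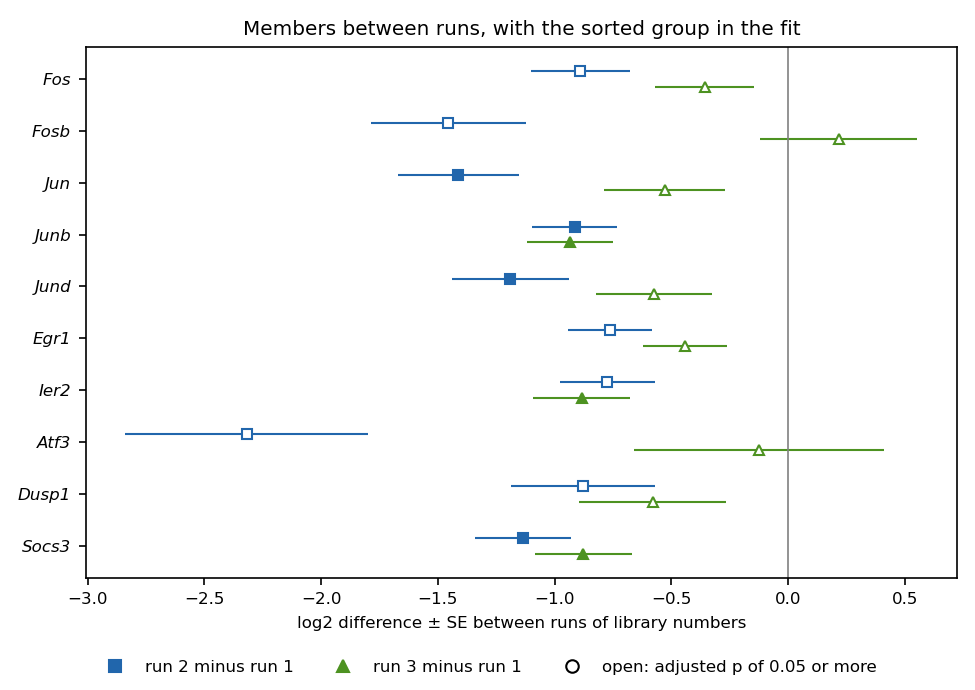
Log2 difference ± SE of run 2 (squares) and run 3 (triangles) from run 1 for each gene, from the fit with the sorted group, where filled points have an adjusted p under 0.05. All 10 genes lie below 0 in run 2, and in run 3 Fosb lies right of 0 with Atf3 close to it.

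Single libraries changed the number of genes called between runs. It fell to 2 without Kit+ K5+ replicate 1, Kit- K5+ replicate 2 or Kit- K5- replicate 2, to 3 without Kit+ K5+ replicate 2 or Kit+ K5- replicate 1 or 2, and to 4 without Kit+ K5- replicate 3 or Kit- K5- replicate 3. The number called over all genes fell as well, to between 210 of 18613 and 543 of 18565 in these fits, against 606 of 17030 with all libraries. Without the whole Kit- K5- group 1 gene was called, Jun (adjusted p = 0.0340), among 226 of 15633 genes tested (1.45%). DESeq2 and limma-voom each called 9, beside 11.7% and 7.72% of all genes. Total counts overlapped between runs (7862830 to 13724364, 8478609 to 11817137 and 5589037 to 9395291 counts in runs 1, 2 and 3), and mitochondrial transcripts took 5.59% to 24.2%, 9.40% to 30.6% and 12.2% to 30.9%. Of the marker lists, 6 of 11 leukocyte and macrophage genes, 6 of 7 mast cell genes and 5 of 16 general epithelial genes differed between runs, and 0 of 12 mesenchyme genes. Mast cell genes reached 4959 CPM in Kit+ K5- replicate 1 and at most 224 CPM in any library of runs 2 and 3. Their part in the run differences was not tested.

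**Figure D5:**
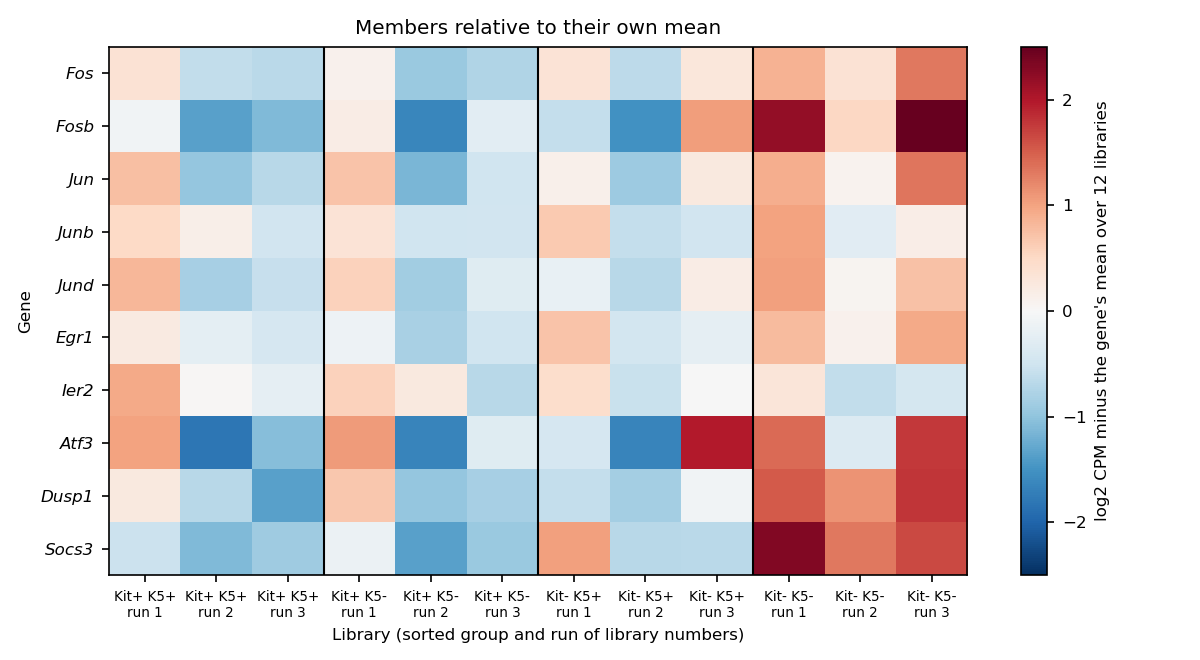
Log2 CPM of each gene minus its own mean over the 12 libraries, with libraries ordered by sorted group and run on the x axis. The 3 Kit- K5- columns hold the 3 highest values of Fos, Dusp1 and Socs3, and run 2 is the lowest of its group in 34 of the 40 combinations of gene and group, a description only.

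The 10 genes varied together from library to library. After group means were taken off, the Pearson correlation of log2 CPM over the 12 libraries had a median of 0.685 over the 45 pairs of genes and ran from 0.319 to 0.972, highest for Fos with Jun and lowest for Fosb with Socs3. Fosb and Atf3 formed one close pair (0.965) and Jun and Jund another (0.953), while Junb was closest to Socs3 (0.889) and Egr1 (0.862). Without taking off group means Ier2 had a median of 0.222 with the other genes, against 0.656 within groups. The libraries share groups, runs and depth, and these values are a description only.

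Among 9130 other genes with a mean of at least 10 CPM, those most like the mean of the 10 genes over the 12 libraries were Cpeb4 (r = 0.958), Vamp2 (0.938), Per1 (0.933) and Fam160b1 (0.931), followed by Ypel5, Ralgds, Arhgap32 and Nav3 (0.904 to 0.908). After group means were taken off they were Cpeb4 (0.957), Hspb8 (0.956), Pnn (0.951) and Cdkn1a (0.945), followed by Prom2, Csrnp1, Sbno2 and Bhlhe40 (0.942 to 0.944). Cpeb4 was first on both scales, and it was the only gene on both lists of 8.

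Related genes outside the 10 were read from 9 lists of 118 genes, 117 of them tested, in the same fits. In Kit- K5+, Kit+ K5- and Kit+ K5+ cells against Kit- K5- cells, 12, 9 and 15 of the 117 were lower and 6, 8 and 9 higher. The shares lower were 10.3%, 7.69% and 12.8%, beside 9.1%, 11.1% and 14.5% of all genes, and the shares higher 5.13%, 6.84% and 7.69%, beside 7.38%, 10.2% and 12.2%. The lists as a whole were thus near or below the share of all genes, and the genes named below are described singly. Of 11 other AP-1 and CREB family genes, 0 were called in each of the 3 comparisons by edgeR's quasi-likelihood test, and 3, 0 and 2 had an unadjusted p under 0.05. Fosl2, a Fos relative named after its values were seen, had the lowest adjusted p of the 11, at log2 -2.57 ± 0.92 in Kit+ K5+ cells (adjusted p = 0.0523). The differences below are log2 values with their SE on the TMM scale, and a value given as higher would fall by the shift in the median gene stated above if the libraries were scaled to epithelial genes. The medians over all genes with that scaling were -1.72, -2.02 and -2.15 in Kit- K5+, Kit+ K5- and Kit+ K5+ cells. Most values given as higher below are smaller in size than these, so their direction is stated for the TMM scale alone.

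Among other MAP kinase phosphatases the few genes called were higher where Dusp1 was lower. In Kit- K5+, Kit+ K5- and Kit+ K5+ cells, 2, 3 and 3 of the other 10 were higher than in Kit- K5- cells and 0 lower, beside 7.38%, 10.2% and 12.2% of all genes higher. Dusp6, the cytoplasmic phosphatase of ERK, was higher by 1.09 ± 0.21 (adjusted p = 0.00336), 1.34 ± 0.21 (6.11e-04) and 1.20 ± 0.21 (0.00106) in the 3 groups. Dusp14 was higher in all 3 by 1.77 ± 0.37, 1.33 ± 0.37 and 1.46 ± 0.37, and Dusp4 in the Kit+ groups by 1.49 ± 0.34 and 1.46 ± 0.34.

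Of 7 SOCS family genes other than Socs3, Socs2, an inhibitor of growth hormone receptor signalling, was the only one called, and it was higher in all 3 groups by 0.88 ± 0.22 (adjusted p = 0.0173), 1.51 ± 0.23 (4.27e-04) and 1.39 ± 0.23 (6.65e-04). Of 15 genes of gp130 and STAT3 signalling, which lies upstream of Socs3, 4, 4 and 6 were lower and 0 higher, beside 9.1%, 11.1% and 14.5% of all genes lower, and the other 11, 11 and 9 did not pass. Jak1, the kinase bound to gp130, was lower by -0.96 ± 0.21 (adjusted p = 0.00758), -1.10 ± 0.21 (0.00236) and -0.93 ± 0.21 (0.00544). Il11ra1, the interleukin 11 receptor, was lower by -1.91 ± 0.56, -3.06 ± 0.59 and -2.69 ± 0.57. Il6st, which encodes gp130 itself, was lower in the Kit+ groups by -1.26 ± 0.25 and -0.88 ± 0.25, and the oncostatin M receptor gene Osmr by -2.70 ± 0.61 and -2.86 ± 0.61. Bcl3, which encodes a nuclear IκB protein, was lower in the K5+ groups by -2.38 ± 0.54 and -1.99 ± 0.52.

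Among 17 other immediate early factors 2, 1 and 2 were higher and 2, 1 and 2 lower in the same order. Klf4, a zinc finger factor, was lower in all 3 groups by -2.06 ± 0.42 (adjusted p = 0.00487), -1.74 ± 0.41 (0.00883) and -1.81 ± 0.41 (0.00593). Myc, a growth factor target, was higher by 0.93 ± 0.29 (adjusted p = 0.0433), 1.47 ± 0.29 (0.00327) and 1.84 ± 0.30 (6.58e-04), and Ctgf was higher in the K5+ groups by 2.69 ± 0.62 and 2.08 ± 0.61. Klf2, another zinc finger factor, was lower in the K5+ groups by -2.44 ± 0.76 and -2.45 ± 0.75. Of 14 genes of messenger RNA decay and growth arrest, Rhob was the only one called, lower in the K5+ groups by -1.56 ± 0.31 and -1.23 ± 0.31. Of 17 kinases and SRF partners, Elk3 was the only one called, lower in the Kit+ groups by -1.65 ± 0.37 and -1.88 ± 0.37.

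Chaperone genes were mixed. Of 13 heat shock genes 4, 2 and 3 were lower and 1, 2 and 2 higher than in Kit- K5- cells. The cytosolic Dnaja1 and Hspa1a were lower in all 3 groups, by -1.26 ± 0.24, -1.10 ± 0.24 and -1.15 ± 0.24 and by -2.02 ± 0.43, -1.28 ± 0.42 and -1.91 ± 0.43. The mitochondrial chaperonin genes Hspe1 and Hspd1 were higher in the Kit+ groups, at 1.85 ± 0.28 and 1.53 ± 0.28 for Hspe1 and 1.43 ± 0.29 and 1.23 ± 0.29 for Hspd1. Hspb1, a small heat shock protein gene, was higher in Kit- K5+ cells by 2.40 ± 0.62 (adjusted p = 0.0179), and Hsp90aa1 was lower there by -0.70 ± 0.19 (0.0261). Of 13 genes of the integrated stress response and DNA damage, 1, 1 and 2 were lower and 0, 1 and 1 higher. Asns, asparagine synthetase, was higher in the Kit+ groups by 1.402 ± 0.27 and 0.90 ± 0.26, and Ppp1r15a, the feedback phosphatase subunit of that response, was lower in the K5+ groups by -1.06 ± 0.33 and -1.08 ± 0.33. Hmox1, heme oxygenase, was lower in the Kit+ groups by -2.31 ± 0.71 and -2.23 ± 0.71.

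Between runs, 19 of the 117 related genes were called, or 16.2% beside 3.56% of all genes. Called were 7 of 17 other immediate early factors, 5 of 14 genes of messenger RNA decay and growth arrest, 2 of 11 AP-1 partners, 2 of 15 gp130 and STAT3 genes, and 1 each of the phosphatases, heat shock and stress response genes. None of 17 kinases and SRF partners and none of 7 other SOCS genes was called. Run 2 was lower than run 1 for 14 of the 117 and higher for 0 by the contrast (0.223% of all genes higher), and run 3 lower for 13 and higher for 0 (1.97% of all genes higher).

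Zfp36, which destabilises messenger RNA with AU-rich elements, was lower than in run 1 by -1.63 ± 0.18 in run 2 (adjusted p = 9.07e-04) and -1.22 ± 0.17 in run 3 (0.00305). Nr4a1, an orphan nuclear receptor of the first wave, was lower by -1.47 ± 0.21 (adjusted p = 0.00677) and -1.26 ± 0.21 (0.00788), and Btg2 by -1.40 ± 0.21 and -1.17 ± 0.21, the pattern of Junb, Ier2 and Socs3. Klf6 followed Fosb and Atf3 instead, lower in run 2 by -1.58 ± 0.26 (adjusted p = 0.0132) and near run 1 in run 3 at -0.11 ± 0.25 (0.854). Maff, a small AP-1 partner, was lower in run 2 by -1.75 ± 0.20 (adjusted p = 0.00145) and Dusp5, a nuclear ERK phosphatase, by -1.88 ± 0.25 (0.00482). Stat3, the factor downstream of gp130, was lower in run 2 by -1.15 ± 0.16 (adjusted p = 0.00565), and Cdkn1a, a cell cycle inhibitor, by -1.66 ± 0.33 (0.0357). Lower in both runs were Csrnp1, by -1.96 ± 0.29 and -1.18 ± 0.29, Mafk, by -1.69 ± 0.28 and -1.07 ± 0.28, and Cebpd, a C/EBP factor, by -2.49 ± 0.50 and -2.41 ± 0.51. Tob2 and Bag3 were lower in run 3 alone by the contrasts with run 1, at -1.05 ± 0.17 and -0.75 ± 0.16, against -0.42 ± 0.17 and -0.04 ± 0.16 in run 2.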

How the data were processed

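The deposited matrix holds counts of reads per gene, not normalized, and equals the single-library tables in all but 0 cells. Per the submitters' processing notes the tools were FastQC, Picard 1.129, STAR 2.4.2a and featureCounts 1.4.6-p3 on GRCm38.p3, with no role or order given there. Neither the strand setting nor the annotation release is stated in those notes or the labels.

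Groups were taken from the labels. Genes were filtered with filterByExpr, scaled by TMM and tested with edgeR 4.0.16 (R 4.3.3) by the quasi-likelihood test over all 12 libraries with 1 mean per group and 8 residual degrees of freedom. P-values were adjusted by Benjamini-Hochberg over all 17030 genes tested, and a gene was called at an adjusted p under 0.05. Runs were tested by an F test of both run terms beside the group, with 6 residual degrees of freedom. Replicates varied with a common biological coefficient of variation of 0.437. The code was tested on simulated data.

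Same-run libraries of the groups compared correlated in their deviations from the group means by 0.263 to 0.369 for Kit+ K5+ with Kit+ K5-, 0.153 to 0.207 for Kit- K5+ with Kit- K5-, 0.299 to 0.408 for Kit+ K5- with Kit- K5- and 0.201 to 0.234 for Kit+ K5+ with Kit- K5-. Each lay above the limit of 0.1 for pairs. For Kit+ K5- with Kit- K5+ the lowest was 0.0928. The pairing comes from the data, since the labels give only library numbers.

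The members and the lists of related genes and markers were chosen with earlier results of these data known. All 10 members are named, with up to 3 called genes of the smallest adjusted p from each list of related genes in each comparison, each then given in every comparison with Kit- K5- cells that called it, the 2 most abundant markers of a list and the 8 genes most like the members over libraries. Alternatives were DESeq2 1.42.0, limma-voom (limma 3.58.1), other scalings and filters, leaving out each library, 2 groups alone and a replicate block. Scaling to epithelial genes and leaving out a run or the Kit- K5- group were added after the data were seen. Levels per kilobase used exon lengths of the GENCODE M21 annotation.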

Additional observations from a re-analysis of the deposited data

Results flagged for a closer look

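With the run as a block, the K5 difference in Kit+ cells minus that in Kit- cells was log2 1.75 ± 0.50 for Dusp1 (adjusted p = 0.0480) and 1.80 ± 0.34 for Socs3 (adjusted p = 0.00619), by edgeR's quasi-likelihood test of the interaction term. Neither passed without the block, at 1.70 ± 0.63 (adjusted p = 0.160) and 1.59 ± 0.63 (adjusted p = 0.189). The fit spans all 4 groups, and for the pair Kit+ K5- and Kit- K5+ the lowest same-run correlation was 0.0928, under the limit for pairs. The term includes the Kit- K5- libraries with their mesenchyme transcripts. Without the block it was called for 10 of 12 mesenchyme genes and 6 of 16 general epithelial genes, beside 4.02% of all genes. The part of other cell types was not tested.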

How the results depend on the processing

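Of 1050 alternative values for single genes, over the comparisons with Kit- K5- cells, the runs, and the interaction for Dusp1 and Socs3, 888 kept direction and side of the threshold, 86 lost a call, 67 gained one and 9 changed sign. Of 1010 values in the other comparisons and for other genes in the interaction, 120 changed sign, and 11 were called, 0 of them outside epithelial scaling and no filter. With the replicate block, 6 genes were called in Kit- K5+ cells (23.8% of all genes) and 2 in the interaction (8.33%). With no filter on low counts, 5 were called in Kit- K5+ (10.5%), 7 in Kit+ K5+ cells (13.1%) and 6 in the interaction (5.38%). Scaled to general epithelial genes, 10 were called in Kit- K5+ (68.0%), Kit+ K5- (74.1%) and Kit+ K5+ cells (78.9%) against Kit- K5- cells. With that scaling 9 were called in the interaction (46.5%) and 3 between runs (2.11%). Leaving out run 1 called 1 in the interaction (2.71%). Leaving out run 2 called 0 in Kit- K5+ cells by edgeR (3 had an unadjusted p under 0.05), 2 for Kit+ K5- cells and 2 for Kit+ K5+ cells, beside 3.07%, 4.77% and 9.48% of all genes. Leaving out run 3 called 1 in each, beside 9.73%, 12.7% and 15.9%. Without the Kit- K5- group 1 was called between runs (1.45%). With 1 library left out, the counts ran from 3 to 6 for Kit+ K5+ cells, from 1 to 6 for Kit+ K5- cells and from 1 to 3 for Kit- K5+ cells, 0 to 1 in the interaction and 2 to 7 between runs. Over all 18022 to 18677 genes tested, these fits called 2757 to 4753, 2123 to 3754, 1362 to 3157, 370 to 729 and 210 to 892. DESeq2 and limma-voom called 5 and 4 for Kit+ K5+ cells (31.5% and 29.6% of all genes). They called 5 and 5 for Kit+ K5- cells (26.7% and 24.2%), and 3 and 3 for Kit- K5+ cells (22.2% and 17.7%).

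Ier2 changed sign in Kit- K5+ cells with total-count scaling (-0.010), without replicate 1 of that group (-0.090) and when Kit- K5- replicate 2 was left out (-0.00023), with a range of -0.090 to 0.51 over single libraries left out, and with epithelial scaling in Kit- K5+ (-1.57), Kit+ K5- (-1.85) and Kit+ K5+ cells (-1.71). Junb changed in Kit+ K5+ cells without Kit- K5- replicate 1 (0.15, range -0.53 to 0.15), and Atf3 in Kit- K5+ cells without replicate 2 of that group (0.0024, range -2.10 to 0.0024) and without run 1 (0.015). Over all genes, the interaction called 684, against 1411 by DESeq2, 1418 with the block, 1960 with no filter and 7926 with epithelial scaling, and the runs called 606, against 1995 by DESeq2 and 1315 by limma-voom, 2121 with no filter and 360 with epithelial scaling. The comparisons with Kit- K5- cells called 2806, 3624 and 4540 genes in Kit- K5+, Kit+ K5- and Kit+ K5+ cells, against 11580, 12615 and 13437 with epithelial scaling. Without run 2 they called 548, 851 and 1692, and without run 3 they called 1710, 2226 and 2789. The causes were not tested. With 3 libraries a group, differences within the spread between libraries were not detectable, which holds for most differences among the other 3 groups.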

Other observations

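Among the 117 related genes, 3 were higher and 1 lower in Kit+ K5- cells when set against Kit- K5+ cells, where 2.67% of all genes were called. The cytosolic chaperone gene Hsp90aa1 was higher by log2 1.00 ± 0.20 (adjusted p = 0.0217), the mitochondrial chaperonin gene Hspd1 by 1.24 ± 0.29 (adjusted p = 0.0410) and the asparagine synthetase gene Asns by 1.30 ± 0.27 (adjusted p = 0.0253), all by edgeR's quasi-likelihood test. Cyr61, which encodes a secreted matrix protein, was lower by -1.17 ± 0.29 (adjusted p = 0.0491). In the interaction, Dusp6 was at -1.23 ± 0.29 (adjusted p = 0.0321) and Jak1 at 1.12 ± 0.29 (adjusted p = 0.0491), the only 2 of the 117 called.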
